A study of Mus musculus with 12 samples.

Results

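Ion channels and ionotropic neurotransmitter receptors were followed by gene family in a mouse pancreatic stellate cell line. The genes were chosen by name: voltage-gated and other potassium channel genes (Kcn), voltage-gated sodium channel genes (Scn), voltage-gated calcium channel genes (Cacn), GABA-A receptor subunits (Gabr) and the AMPA, kainate, NMDA and delta glutamate receptor subunits (Gria, Grik, Grin and Grid). Of 49671 genes in the count table, 174 carried such a name, and the 59 with at least 10 counts in at least 3 of the 12 libraries are the members described here. They comprise 27 potassium channel genes, 12 calcium channel genes, 9 glutamate receptor genes, 6 GABA-A receptor genes and 5 sodium channel genes. Of the 115 named genes below the minimum, 16 had no count in any library.

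The cells were ImPSC-1, a mouse pancreatic stellate line that the labels also call pancreatic mesenchymal, grown as stable derivatives, with 3 libraries in each of 4 groups. The group shCtrl carried a control hairpin and has the genotype WT, shKitl carried a hairpin against Kitl (the gene of stem cell factor, ligand of the receptor KIT), Egfp_OE overexpressed Egfp and Kitl_OE overexpressed Kitl. The design asks what the cells' own KITL does in pancreatic mesenchyme, so the comparisons are shKitl with shCtrl and Kitl_OE with Egfp_OE. Each description has a P number whose meaning is not stated: 14, 15 and 16 for shCtrl, 13, 14 and 15 for shKitl, 17, 18 and 19 for Egfp_OE, and 18, 19 and 20 for Kitl_OE. Nothing in the labels says that replicates came from separate cultures or separately made lines, so p-values measure the spread between these libraries, which may be technical.

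Voltage-gated channels open when the membrane potential changes and pass potassium, sodium or calcium ions through a pore formed by a large alpha subunit, while smaller beta, gamma and cytosolic subunits set how many channels reach the surface and how fast they open and close. Ionotropic receptors are channels opened by a transmitter: GABA opens a chloride pore in GABA-A receptors, and glutamate opens cation pores in AMPA, kainate and NMDA receptors. These families are best known from neurons and muscle, and stellate cells, the fibroblast-like cells that store vitamin A and lay down matrix in the pancreas, are not electrically excitable in the way of neurons.

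Library depth was 24979742 to 33517686 counts in genes. Kitl itself was at 73.5 to 76.4 CPM (counts divided by the TMM-adjusted library size) in shCtrl and at 25.1 to 30.3 CPM in shKitl, and it reached 114 to 128 CPM in Kitl_OE. In Egfp_OE it was at 72.3 and 72.5 in 2 libraries and at 31.8 in replicate 2, which also held the largest share of spike-in reads (1.35%, against 0.446% to 0.684% in the others). All 13 stellate and fibroblast markers listed were detected. Of 13 neuronal markers 5 reached the count minimum: over each whole group Rbfox3 had at most 2 counts, Snap25 and Th at most 1 and Chat none, while Map2, Elavl4, Syt1, Tubb3 and Nefm were the 5, and Tubb3 made up most of the list's level. Of 13 islet markers 1 reached the minimum, and Ins1 and Ins2 had no count.

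Most members were expressed at a low level. On the deposited TPM scale, which divides by gene length and so allows genes to be set side by side, the member with the highest mean over all libraries was Cacnb3, a cytosolic beta subunit of calcium channels, at 95.1 ± 26.2 TPM in shCtrl and 108 ± 25.9 TPM in shKitl, with 96.4 ± 22.7 TPM in Egfp_OE and 186 ± 19 TPM in Kitl_OE (mean ± SD, n = 3 in each group). Cacng7, an auxiliary subunit of AMPA receptors named after calcium channel gamma subunits, followed at 48.5 ± 13.2, 74.7 ± 34.4, 71.7 ± 14.8 and 18.1 ± 2.27 TPM in the same order of groups. Among the next were Kcnab1 (a cytosolic beta subunit of voltage-gated potassium channels), Gria3 (an AMPA receptor subunit), Grik5 (a kainate receptor subunit), Cacna2d1 (an extracellular calcium channel subunit) and Gabra3 (a GABA-A receptor alpha subunit). Of the 8 highest members, 5 are accessory subunits and 3 are receptor subunits, and no voltage-gated pore is among them. This order holds for the mean over all libraries: Gabra3 is among the 8 through shKitl, at 18.4 TPM there and 0.62 to 1.46 TPM in the other groups, and in Kitl_OE the pore Kcnd2, at 12.8 TPM, was above Cacna2d1, at 9.26 TPM.

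The summed level of all members was of like size in the groups, at 286 ± 75.3 TPM for shCtrl, 372 ± 130 for shKitl, 334 ± 76.3 for Egfp_OE and 359 ± 23.2 for Kitl_OE (SD, n = 3). Without Cacnb3 the sums were 191 ± 49.1, 264 ± 106, 237 ± 53.7 and 173 ± 5.46 TPM in that order. Summed GABA-A receptor subunits differed more between the overexpression lines, at 7.67, 8.09 and 9.95 TPM in the Egfp_OE libraries and 1.11, 1.27 and 1.07 TPM in the Kitl_OE libraries, without overlap. Of the 59 members, 32 reached 10 counts in at least 1 library of every group and 23 did so in all 12 libraries. Kcnu1, a potassium channel known from sperm, reached 10 counts in Kitl_OE libraries and in no other group, so its choice already required a difference.

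**Figure D1:**
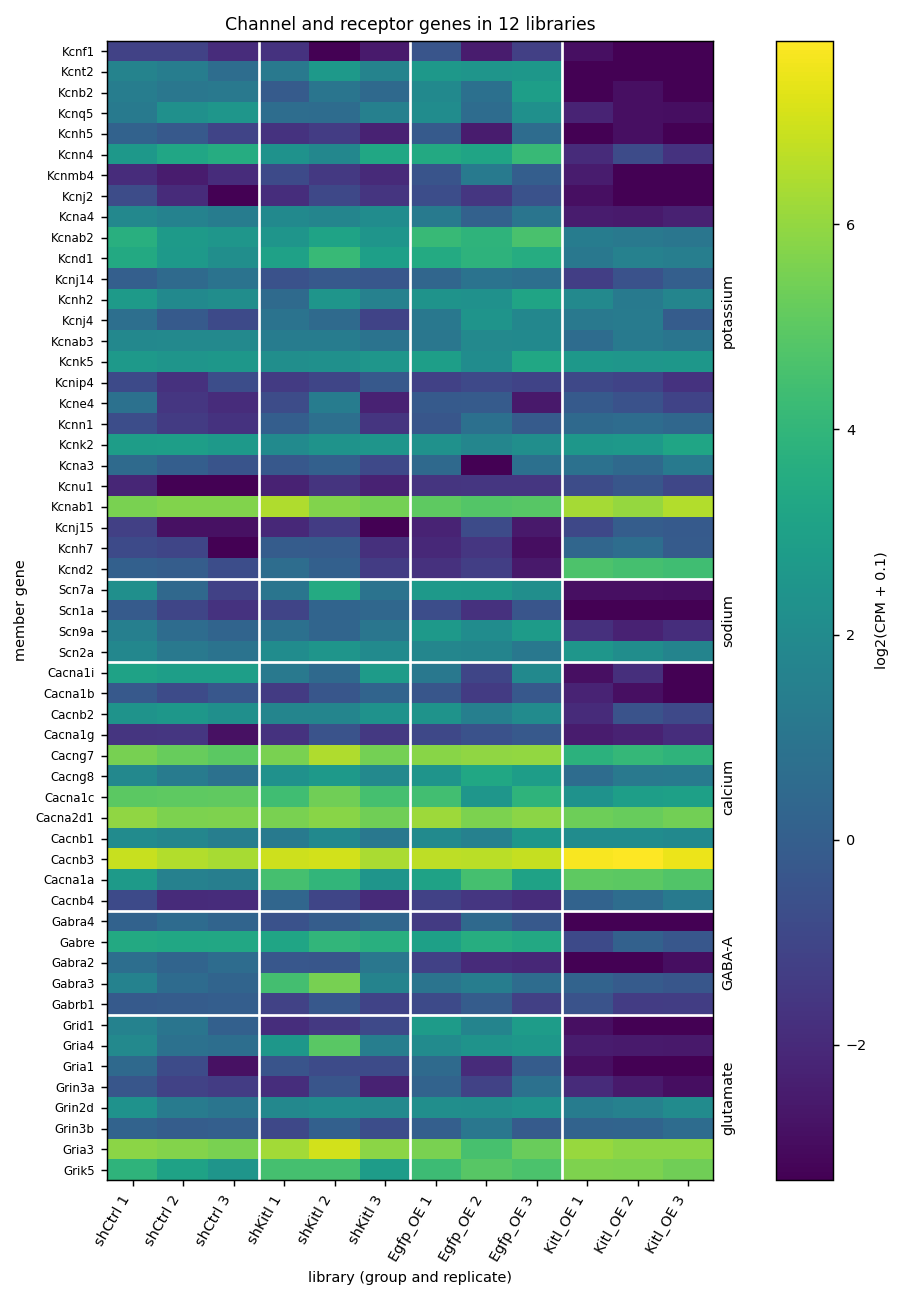
Level of 55 of the 59 members in the 12 libraries, as log2(CPM + 0.1) (colour), with genes in rows by channel class and libraries in columns by group. The 3 Kitl_OE columns hold most of the low values, and the rows of Kcnd2, Cacna1a and Cacnb3 are highest there.

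Kitl_OE cells differed from Egfp_OE cells in most members, and mostly downwards. By edgeR's quasi-likelihood test with Benjamini-Hochberg adjustment over all 15271 genes tested, 37 of the 58 members tested (63.8%) passed an adjusted p of 0.05, against 34.3% of all genes. Lower calls were 30 (51.7% of members, against 18.9% of all genes) and higher calls 7 (12.1%, against 15.4%). The median log2 fold change of the members was -1.23, beside -0.07 over all genes. Setting the 3 members without counts in Kitl_OE to their bound cannot move this median, since the bounds lie below it too. In bulk RNA, fewer cells that express a gene and less RNA per cell cannot be told apart.

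Many of the lower calls came close to silence. Over the Kitl_OE group as a whole, 14 members had 3 or fewer counts, and no member was that low in any other group. The share of all genes that was this low in Kitl_OE was not counted, so this number describes the members alone. Fitted log2 fold changes of -5 or lower were found for 14 called members (24.1%), against 2.15% of all genes. The libraries of the Kitl_OE and Egfp_OE groups did not overlap in 44 members (75.9%, against 50.5% of all genes), with 33 lower (56.9%, against 25.6%) and 11 higher (19%, against 24.9%) in Kitl_OE. In 25 members (43.1%, against 13.8% of all genes) all 3 Kitl_OE libraries were below all 9 other libraries, and in 5 (8.62%, against 13.7%) they were above all of them. Kcnu1 is among these 5 and among the 11 higher, and it had to be, since its Kitl_OE counts alone made it a member. In the same way, 6 members would not have reached the minimum without the Egfp_OE libraries (Cacna1g, Grin3a, Kcnmb4, Kcnj2, Kcnf1 and Kcnh5), and 5 of the 30 lower calls are theirs. Kcnmb4 and Kcnh5 are also among the 14 at -5 or lower, the 33 and the 25. The choice of members thus favoured lower values in these counts. Without Egfp_OE replicate 2, 40 members were called, against 39.4% of all genes, and with the comparison held to P numbers that both groups contain (Egfp_OE replicates 2 and 3 with Kitl_OE replicates 1 and 2), 27 were called, all of them among the 37, against 15.2% of all genes. The calls lost in that last fit were those of Cacna1b, Cacna1i, Cacna2d1, Gabra2, Gria1, Grin3a, Kcnh5, Kcnj2, Kcnj14 and Kcnk2.

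**Figure D2:**
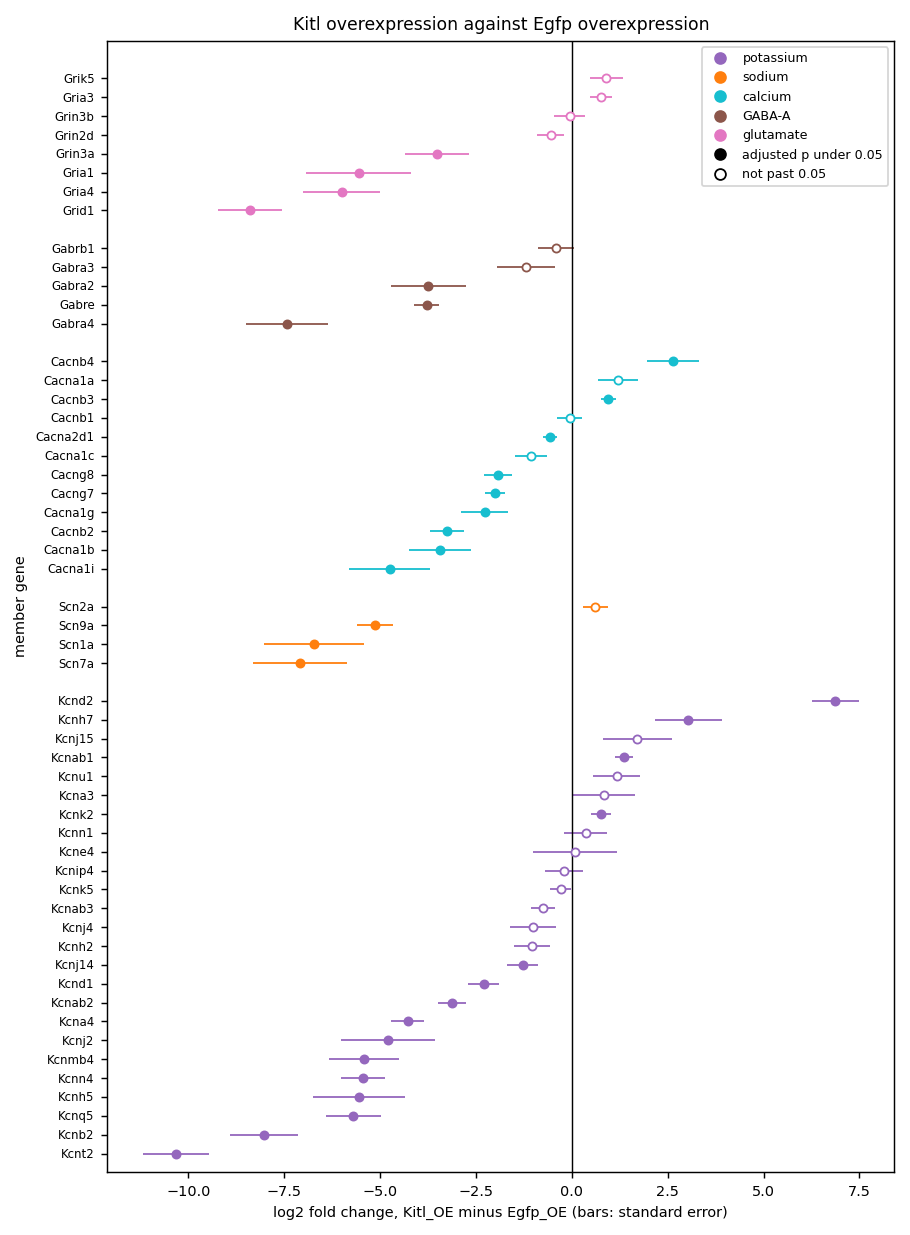
Log2 fold change of 54 of the 58 tested members in Kitl_OE minus Egfp_OE (points, x axis) with its standard error (bars), with members grouped by channel class on the y axis and calls at an adjusted p under 0.05 drawn as filled points and colour giving the class. Kcnd2 lies at 6.87, 6 of the called members plotted lie right of 0 and 28 left of it, and the fitted values of genes with 3 or fewer counts in Kitl_OE depend on the fit's prior count.

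Among potassium channels 5 members rose, 11 fell and 10 of the 26 tested did not pass. The shares of all genes to set beside the counts of this and every later class are 18.9% lower and 15.4% higher. Kcnd2, the pore of a rapidly inactivating A-type channel known from neuronal dendrites and heart, rose most of all members. It lies on the plus strand of GRCm38 at chr6:21215503-21729805. Its level was 0.954, 0.867 and 0.509 in the shCtrl libraries, 1.46, 0.949 and 0.299 in the shKitl libraries, 0.2, 0.321 and 0.0671 in the Egfp_OE libraries and 25.7, 22.6 and 20.8 in the Kitl_OE libraries (CPM). Each Kitl_OE library exceeded each other library, and the mean was 118-fold that of Egfp_OE (log2 fold change 6.87 ± 0.605 SE, adjusted p = 1.93e-05).

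Kcnt2, the pore of a sodium-activated potassium channel, had no count in any Kitl_OE library and the lowest fitted log2 fold change (-10.33), which depends on the fit's prior count. It lies on the plus strand at chr1:140246158-140612067. The level was 3.06, 2.48 and 1.48 in the shCtrl libraries, 2.13, 6.09 and 3.03 in the shKitl libraries, 5.92, 5.49 and 5.87 in the Egfp_OE libraries and 0, 0 and 0 in the Kitl_OE libraries (CPM). With 519 counts over the Egfp_OE group and none over the Kitl_OE group it was at least 159-fold lower, with the group without counts set to a floor of 3 counts (adjusted p = 3.82e-05). The intervals and floors given here and below cover counting error only.

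The sequences before the start sites of these 2 genes with opposite changes are shown because their fitted log2 fold changes are the highest and the lowest of the members. They are RefSeq sequences of the build GRCm38.p6, 140 bases from 150 to 11 bases before the RefSeq start, 5′ to 3′ on the gene's strand, at chr6:21215196-21215335 (plus strand) and chr1:140245568-140245707 (plus strand). The RefSeq start lies 157 bases (Kcnd2) and 440 bases (Kcnt2) from the nearest GENCODE start. Capitals mark a CCAAT box, read here on the opposite strand as ATTGG.
Kcnd2: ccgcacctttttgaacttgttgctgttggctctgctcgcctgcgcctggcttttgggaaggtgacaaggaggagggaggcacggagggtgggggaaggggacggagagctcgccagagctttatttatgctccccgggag
Kcnt2: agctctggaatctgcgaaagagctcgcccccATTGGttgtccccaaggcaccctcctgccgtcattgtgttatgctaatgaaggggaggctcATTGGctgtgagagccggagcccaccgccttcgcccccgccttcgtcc

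Over the whole 250 bases before the start, Kcnd2 held 22 CpG pairs and the GC box GGGCGG outside the stretch printed, and Kcnt2 held 10 CpG pairs and CCAAT. The median over 32544 promoter windows of that length was 6 CpG pairs (quartiles 2 and 16), 33.0% of windows held GGGCGG and 33.8% held CCAAT on either strand. Also searched on both strands were the TATA box TATAAA (in 12.3% of windows), the AP-1 site TGANTCA (6.73%), the cyclic AMP response element TGACGTCA (1.55%), the TEAD site GGAATG (12.6%) and the RE1 fragment TTCAGCACC (0.301%), and none of them was in either window. A match describes letters and not a bound site. RefSeq windows matched 44 of the 59 members, too few for a property of the whole set to be compared.

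Kcnb2, the pore of a delayed rectifier, fell as well. Its level was 2.5, 2.05 and 2.12 in the shCtrl libraries, 0.817, 1.9 and 1.31 in the shKitl libraries, 3.81, 1.6 and 7.48 in the Egfp_OE libraries and 0, 0.0366 and 0 in the Kitl_OE libraries (CPM), and with 1 count over the Kitl_OE group against 396 over Egfp_OE it was 363-fold lower with a 95% interval of 64.8 to 14385, adjusted p = 7.55e-05.

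Kcnh7 and Kcnh5 belong to the ether-a-go-go family. Kcnh7 was at 0.461, 0.394 and 0 in the shCtrl libraries, 0.853, 0.803 and 0.187 in the shKitl libraries, 0.143, 0.24 and 0.0336 in the Egfp_OE libraries and 1.17, 1.47 and 0.819 in the Kitl_OE libraries (CPM) and rose in Kitl_OE against Egfp_OE (log2 fold change 3.04 ± 0.883 SE, adjusted p = 0.0203), on few reads. That call was lost without Egfp_OE replicate 1 (adjusted p = 0.0543), Egfp_OE replicate 3 (0.0647) or Kitl_OE replicate 2 (0.0614). Kcnh5 was at 1.02, 0.749 and 0.381 in the shCtrl libraries, 0.213, 0.292 and 0.112 in the shKitl libraries, 0.773, 0.0801 and 1.44 in the Egfp_OE libraries and 0, 0.0366 and 0 in the Kitl_OE libraries (CPM), with the Kitl_OE libraries below all others. It fell, 66.1-fold lower with a 95% interval of 11.5 to 2645 in Kitl_OE than in Egfp_OE, adjusted p = 0.00451.

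The cytosolic beta subunits, which bind voltage-gated pores, split as well. Kcnab1 was at 46.2, 51.3 and 51.7 in the shCtrl libraries, 87.7, 51.3 and 44.2 in the shKitl libraries, 32.9, 27.9 and 30.1 in the Egfp_OE libraries and 79.2, 64.6 and 91.3 in the Kitl_OE libraries (CPM). It was higher in each Kitl_OE library than in each Egfp_OE library, though shKitl replicate 1 was as high (log2 fold change 1.37 ± 0.238 SE, adjusted p = 0.00132). Kcnab2 was at 17.7, 14.9 and 23.9 CPM in the Egfp_OE libraries and 2.41, 2.13 and 1.95 CPM in the Kitl_OE libraries and fell 8.71-fold (log2 fold change -3.12 ± 0.363 SE, adjusted p = 1.04e-04). The third, Kcnab3, was at 2, 3.65 and 3.73 CPM in the Egfp_OE libraries and 1.44, 2.2 and 1.91 CPM in the Kitl_OE libraries and did not pass (log2 fold change -0.75 ± 0.303 SE, adjusted p = 0.0747).

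Kcnq5, a pore of the slow M-type current, was among the largest falls. It was at 2.2, 4.73 and 5.59 in the shCtrl libraries, 1.46, 1.42 and 2.73 in the shKitl libraries, 4.12, 1.4 and 4.63 in the Egfp_OE libraries and 0.117, 0.0366 and 0.0341 in the Kitl_OE libraries (CPM), so Kitl_OE lay below every other library (log2 fold change -5.69 ± 0.709 SE, adjusted p = 1.66e-04). Kcnn4, the intermediate-conductance calcium-activated channel known from immune cells and fibroblasts, was at 10.5, 8.98 and 17.6 CPM in the Egfp_OE libraries and 0.156, 0.476 and 0.205 CPM in the Kitl_OE libraries (log2 fold change -5.45 ± 0.57 SE, adjusted p = 5.47e-05). Kcna4, another A-type pore, fell from 1.72 ± 0.658 to 0.0845 ± 0.0157 CPM (mean ± SD, n = 3; adjusted p = 4.23e-05). Kcnd1, an A-type pore of the same Kcnd family as Kcnd2, fell from 12.3 ± 2.01 to 2.5 ± 0.395 CPM (adjusted p = 0.00133).

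Accessory and inward rectifier genes added to the falls. Kcnmb4, a beta subunit of large-conductance calcium-activated channels, had 104 counts over Egfp_OE and 2 over Kitl_OE (47.7-fold lower with a 95% interval of 12.9 to 399, adjusted p = 0.00109). Kcnj2, the pore of the classical inward rectifier that holds the resting potential, had 42 and 1 (38.5-fold lower with a 95% interval of 6.55 to 1558, adjusted p = 0.0114). Kcnj14, another inward rectifier, fell less (log2 fold change -1.28 ± 0.411 SE, adjusted p = 0.0315), and its call was lost without Egfp_OE replicate 2 (adjusted p = 0.0610), Egfp_OE replicate 3 (0.0655), Kitl_OE replicate 1 (0.120) or Kitl_OE replicate 2 (0.0964).

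Kcnk2, a two-pore-domain channel opened by membrane stretch, was at 7.17, 7.29 and 6.23 in the shCtrl libraries, 3.87, 5.18 and 5.45 in the shKitl libraries, 4.75, 3.29 and 4.4 in the Egfp_OE libraries and 5.72, 6.3 and 9.05 in the Kitl_OE libraries (CPM). The Kitl_OE libraries exceeded the Egfp_OE libraries but not the shCtrl libraries. Its small rise (log2 fold change 0.76 ± 0.255 SE, adjusted p = 0.0378) was lost without shCtrl replicate 2 (adjusted p = 0.0527), Egfp_OE replicate 2 (0.0629) or 3 (0.0641), or Kitl_OE replicate 2 (0.0635) or 3 (0.150).

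Among the 10 potassium members that did not pass, log2 fold changes ran from -1.04 (Kcnh2, a rapid delayed rectifier of the heart) to 1.71 (Kcnj15, an inward rectifier). Those of Kcnj4, Kcnab3, Kcnk5, Kcnip4, Kcne4, Kcnn1, Kcna3 and Kcnu1 lay in between, at -1.01, -0.75, -0.29, -0.21, 0.08, 0.36, 0.83 and 1.18. Kcnf1, a silent subunit that modifies other pores, failed the count filter of the test, with 11, 9 and 4 counts for shCtrl, 6, 0 and 2 for shKitl, 23, 2 and 10 for Egfp_OE, and 1, 0 and 0 for Kitl_OE. Just below the minimum for membership, Scn3b had at most 15 counts in a library and 87 in all, and Kcnc2 16 and 78.

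Sodium channel genes split within 1 gene cluster. Of the 5 sodium members 3 fell (Scn1a, Scn9a and Scn7a) and 2 did not pass, Scn2a among them. Scn3a, Scn2a, Scn1a, Scn9a and Scn7a lie in this order within 1328 kb of chromosome 2, and Scn3a had 8, 8, 4 and 10 counts over shCtrl, shKitl, Egfp_OE and Kitl_OE, too few for membership.

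Scn2a, a pore of central neurons, was at 3.39, 2.13 and 1.78 in the shCtrl libraries, 4.12, 5.4 and 3.89 in the shKitl libraries, 3.29, 3.09 and 2.08 in the Egfp_OE libraries and 5.6, 4.25 and 3.14 in the Kitl_OE libraries (CPM). Its Kitl_OE and Egfp_OE libraries overlapped (log2 fold change 0.62 ± 0.328 SE, adjusted p = 0.168). Scn1a, a neighbouring pore gene known from inhibitory neurons, was at 0.515, 0.2 and 0.671 CPM in the Egfp_OE libraries and had no count in any Kitl_OE library, at least 13.1-fold lower (adjusted p = 0.00393).

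Scn9a, a pore of pain-sensing neurons, was at 2.67, 1.42 and 1.1 in the shCtrl libraries, 1.6, 1.13 and 1.94 in the shKitl libraries, 6.1, 4.13 and 6.85 in the Egfp_OE libraries and 0.195, 0.11 and 0.171 in the Kitl_OE libraries (CPM). The Egfp_OE libraries were the highest and the Kitl_OE libraries the lowest of all (log2 fold change -5.13 ± 0.472 SE, adjusted p = 2.51e-05). Scn7a, which encodes a relative of these pores that senses the sodium level rather than voltage, was at 4.54, 1.26 and 0.339 in the shCtrl libraries, 1.88, 11 and 1.79 in the shKitl libraries, 6.24, 6.05 and 4.43 in the Egfp_OE libraries and 0.0389, 0.0366 and 0.0341 in the Kitl_OE libraries (CPM). Each Kitl_OE library had 1 count, while single libraries of the hairpin lines reached the Egfp_OE level, and Kitl_OE was 153-fold lower with a 95% interval of 52.1 to 745 than Egfp_OE, adjusted p = 0.00133.

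Sequences before 3 start sites of the cluster are shown because the difference of Scn2a did not pass the test while Scn9a and Scn7a fell. They are RefSeq sequences of GRCm38.p6 over the same 140 bases, at chr2:65620619-65620758 (plus strand), chr2:66634973-66635112 (minus strand) and chr2:66784921-66785060 (minus strand), each written 5′ to 3′ on the gene's strand. Capitals mark a GC box, read on the opposite strand as CCGCCC.
Scn2a: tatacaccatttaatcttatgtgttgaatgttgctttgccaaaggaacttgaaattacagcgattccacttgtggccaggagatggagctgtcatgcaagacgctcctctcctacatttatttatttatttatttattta
Scn9a: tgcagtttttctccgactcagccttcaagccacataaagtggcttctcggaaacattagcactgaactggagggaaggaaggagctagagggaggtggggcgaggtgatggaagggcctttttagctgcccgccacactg
Scn7a: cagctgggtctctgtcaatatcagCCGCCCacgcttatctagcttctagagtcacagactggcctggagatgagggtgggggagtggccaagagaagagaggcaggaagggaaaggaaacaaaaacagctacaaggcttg

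Over the 250 bases before the start Scn2a held 2 CpG pairs, Scn9a 5 and Scn7a 3. None of the motifs searched was in the windows of Scn2a and Scn9a, and Scn7a held GGGCGG and GGAATG. The run of repeated ttta units at the end of the Scn2a stretch is visible in the printed letters.

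**Figure D3:**
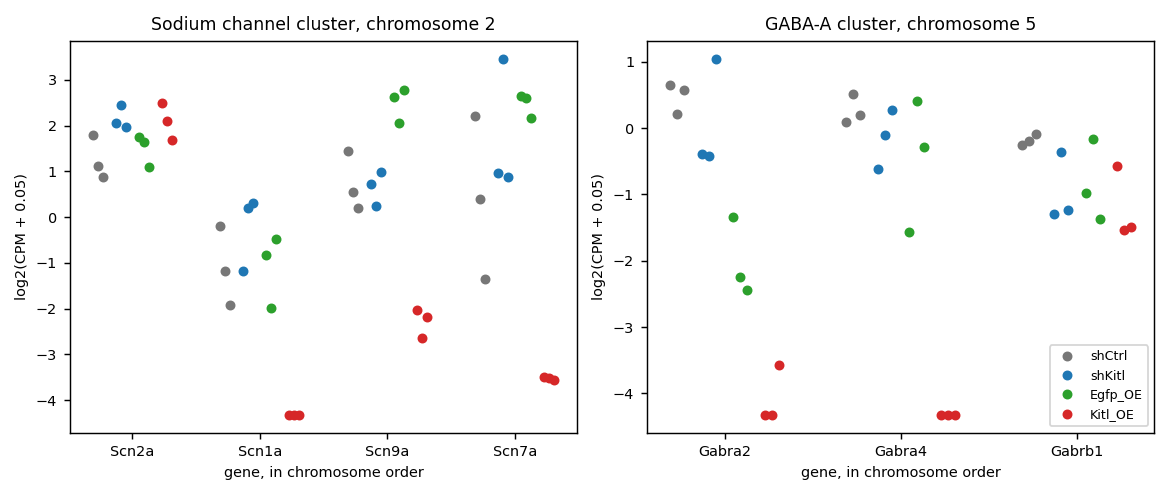
Levels in each library, as log2(CPM + 0.05), of the member genes of the sodium channel cluster on chromosome 2 (left) and of the GABA-A receptor cluster on chromosome 5 (right), with genes in chromosome order on the x axis and 1 point per library coloured by group. Kitl_OE points lie with the other groups for Scn2a and Gabrb1 and below all other points for Scn1a, Scn9a, Scn7a, Gabra2 and Gabra4.

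Calcium channel genes moved in both directions. Of 12 members 2 rose (Cacnb4 and Cacnb3), 7 fell and 3 did not pass (Cacna1a, Cacna1c and Cacnb1). The rises were both in beta subunits, which bind inside the cell and carry the pore to the surface. Cacnb3 was at 116, 90.4 and 79.8 in the shCtrl libraries, 122, 132 and 82.4 in the shKitl libraries, 101, 99.8 and 111 in the Egfp_OE libraries and 207, 221 and 178 in the Kitl_OE libraries (CPM), higher in each Kitl_OE library than in any other (log2 fold change 0.96 ± 0.198 SE, adjusted p = 0.00367). Under scaling by spike-in totals the Cacnb3 call was lost (adjusted p = 0.104).

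Cacnb4 was at 0.461, 0.158 and 0.17 in the shCtrl libraries, 1.17, 0.401 and 0.149 in the shKitl libraries, 0.343, 0.24 and 0.168 in the Egfp_OE libraries and 1.05, 1.47 and 2.29 in the Kitl_OE libraries (CPM). Kitl_OE exceeded Egfp_OE without overlap but not shKitl replicate 1 (log2 fold change 2.64 ± 0.683 SE, adjusted p = 0.0117). Cacnb2, another beta subunit, was at 5.09, 2.64 and 4.06 CPM in the Egfp_OE libraries and 0.156, 0.623 and 0.444 CPM in the Kitl_OE libraries and fell 9.65-fold (log2 fold change -3.25 ± 0.441 SE, adjusted p = 2.88e-04). The remaining beta subunit Cacnb1 did not pass (log2 fold change -0.05 ± 0.322 SE, adjusted p = 0.918).

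Pore genes fell or did not pass. Cacna1i, a low-threshold T-type pore, was at 8.36, 7.29 and 7.29 in the shCtrl libraries, 2.17, 1.28 and 6.84 in the shKitl libraries, 2.09, 0.401 and 3.73 in the Egfp_OE libraries and 0.0389, 0.183 and 0 in the Kitl_OE libraries (CPM), highest in shCtrl and lowest in Kitl_OE (log2 fold change -4.75 ± 1.05 SE, adjusted p = 0.0054), with a log2 fold change of -6.51 without Kitl_OE replicate 2. Its call was lost with only the libraries of shared P numbers and in a limma fit on log2(TPM + 1). Cacna1b, the pore of the N-type channel that triggers transmitter release, had 53 counts over Egfp_OE and 4 over Kitl_OE (adjusted p = 0.00752). Cacna1g, another T-type pore, had 53 and 10 (adjusted p = 0.0151), and was not called without Kitl_OE replicate 1 (0.0642) or 2 (0.0591).

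Cacna1c, the L-type pore of heart and smooth muscle, was at 31.2, 32.6 and 33.9 in the shCtrl libraries, 20.8, 41.8 and 23 in the shKitl libraries, 21.4, 5.57 and 15 in the Egfp_OE libraries and 4.9, 7.36 and 7.75 in the Kitl_OE libraries (CPM). Egfp_OE and Kitl_OE overlapped through Egfp_OE replicate 2 (log2 fold change -1.07 ± 0.414 SE, adjusted p = 0.0655). Cacna1a, the P/Q-type pore, was at 6.45, 2.88 and 2.59 in the shCtrl libraries, 22.8, 15.9 and 5.49 in the shKitl libraries, 8.47, 23 and 8.29 in the Egfp_OE libraries and 32.3, 31.8 and 27.3 in the Kitl_OE libraries (CPM). Every Kitl_OE library exceeded every other library, but the difference from Egfp_OE, whose libraries spread widely, did not pass (log2 fold change 1.21 ± 0.531 SE, adjusted p = 0.0993).

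Cacng7 and Cacng8, neighbouring genes on chromosome 7 whose proteins attend AMPA receptors, fell together. Cacng7 was at 45.8, 36.5 and 31.7 in the shCtrl libraries, 46.8, 88.3 and 44.4 in the shKitl libraries, 56.2, 62.3 and 64.3 in the Egfp_OE libraries and 14.1, 16.7 and 15.1 in the Kitl_OE libraries (CPM), with Kitl_OE below all other libraries (log2 fold change -1.99 ± 0.257 SE, adjusted p = 2.06e-04). Cacng8 was at 5.3, 9.66 and 7.18 CPM in the Egfp_OE libraries and 1.4, 2.13 and 2.29 CPM in the Kitl_OE libraries (log2 fold change -1.92 ± 0.36 SE, adjusted p = 0.00201), though its shCtrl libraries, at 3.55, 2.36 and 1.7 CPM, overlapped those of Kitl_OE. Cacna2d1, the subunit bound by gabapentin, was at 60.6, 49 and 49.9 in the shCtrl libraries, 46.3, 56.8 and 41.7 in the shKitl libraries, 71.1, 49 and 57.9 in the Egfp_OE libraries and 40.2, 36.7 and 42.9 in the Kitl_OE libraries (CPM) and fell slightly (log2 fold change -0.57 ± 0.179 SE, adjusted p = 0.0282), a call lost without Egfp_OE replicate 1 (adjusted p = 0.104) or 3 (0.0519) or without any 1 of the Kitl_OE libraries (0.0832, 0.116 and 0.0565).

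GABA-A receptor subunits fell in 4 of 6 cases and rose in none, beside 18.9% lower and 15.4% higher over all genes. With 6 members, the absence of a rise cannot be told from that 15.4%. Gabre, the epsilon subunit on the X chromosome, was the best counted of the falls at 10.6, 9.74 and 10 in the shCtrl libraries, 9.28, 15.7 and 12.8 in the shKitl libraries, 7.81, 12.1 and 10.3 in the Egfp_OE libraries and 0.467, 0.989 and 0.717 in the Kitl_OE libraries (CPM). The 9 other libraries lay between 7.81 and 15.7 CPM and all Kitl_OE libraries below 1 CPM (log2 fold change -3.78 ± 0.32 SE, adjusted p = 1.49e-05).

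Gabra4, Gabra2 and Gabrb1 belong to a cluster of 1398 kb on chromosome 5. Gabra4, an alpha subunit of receptors outside synapses, was at 1.02, 1.38 and 1.1 in the shCtrl libraries, 0.604, 0.876 and 1.16 in the shKitl libraries, 0.286, 1.28 and 0.772 in the Egfp_OE libraries and 0, 0 and 0 in the Kitl_OE libraries (CPM), at least 19.9-fold lower in Kitl_OE than in Egfp_OE (adjusted p = 7.67e-04). Gabra2, an alpha subunit of synaptic receptors, had 20 counts over Egfp_OE and 1 over Kitl_OE (18.3-fold lower with a 95% interval of 2.93 to 760.5, adjusted p = 0.0124). Its call was lost without Kitl_OE replicate 1 (adjusted p = 0.0510), and its shCtrl libraries, at 1.51, 1.1 and 1.44 CPM, were above Egfp_OE as well.

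Gabrb1 was at 0.458, 0.841 and 0.336 CPM in the Egfp_OE libraries and 0.623, 0.293 and 0.307 CPM in the Kitl_OE libraries, with overlap (log2 fold change -0.41 ± 0.476 SE, adjusted p = 0.541). Gabra4 and Gabrb1 overlap by 196 bases on opposite strands. Whether the counting used strand is not given here, so reads from those bases cannot be assigned to either gene. Gabra3, next to Gabre on the X chromosome, was at 2.93, 1.38 and 1.1 in the shCtrl libraries, 22.3, 46 and 2.99 in the shKitl libraries, 1.86, 2.48 and 1.44 in the Egfp_OE libraries and 1.05, 0.806 and 0.683 in the Kitl_OE libraries (CPM). Kitl_OE lay below every other library, but the difference from Egfp_OE did not pass (log2 fold change -1.18 ± 0.755 SE, adjusted p = 0.248).

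Glutamate receptor genes fell in 5 of 9 cases and rose in none, beside 18.9% lower and 15.4% higher over all genes. With 9 members, the absence of a rise cannot be told from that 15.4% either. Grid1, a delta receptor known for binding cerebellins at synapses, was at 2.96, 1.89 and 0.975 in the shCtrl libraries, 0.178, 0.255 and 0.448 in the shKitl libraries, 6.81, 3.09 and 6.95 in the Egfp_OE libraries and 0.0389, 0 and 0 in the Kitl_OE libraries (CPM). Egfp_OE was the highest group, and Kitl_OE, with 1 count in all, was 479-fold lower with a 95% interval of 85.6 to 18950.1, adjusted p = 4.18e-05.

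AMPA receptor subunits did not move together. Gria4 was at 3.62, 1.66 and 1.53 in the shCtrl libraries, 5.76, 31 and 2.61 in the shKitl libraries, 4.01, 5.09 and 5.81 in the Egfp_OE libraries and 0.0778, 0.0733 and 0.0683 in the Kitl_OE libraries (CPM). Kitl_OE was below all 9 other libraries, and shKitl replicate 2 was far above the rest (log2 fold change -6.00 ± 1.01 SE, adjusted p = 0.00108). Gria1 was at 1.28, 0.473 and 0.0424 in the shCtrl libraries, 0.64, 0.474 and 0.486 in the shKitl libraries, 1.32, 0.16 and 0.839 in the Egfp_OE libraries and 0.0389, 0 and 0 in the Kitl_OE libraries (CPM), with 1 count in Kitl_OE (68.8-fold lower with a 95% interval of 12 to 2753 than Egfp_OE, adjusted p = 0.00903). Gria3, at 58, 52.7 and 47.6 in the shCtrl libraries, 76.4, 131 and 57.1 in the shKitl libraries, 46.5, 23.1 and 37.6 in the Egfp_OE libraries and 66.5, 58.1 and 57.3 in the Kitl_OE libraries (CPM), was the best counted of them and higher in each Kitl_OE than in each Egfp_OE library without passing (log2 fold change 0.76 ± 0.299 SE, adjusted p = 0.0685).

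Grik5 was at 15, 8.24 and 5.47 in the shCtrl libraries, 22.6, 22.7 and 6.91 in the shKitl libraries, 19.6, 30.3 and 24.9 in the Egfp_OE libraries and 49.8, 48.1 and 41.3 in the Kitl_OE libraries (CPM), above all other libraries in Kitl_OE but short of the threshold (log2 fold change 0.90 ± 0.426 SE, adjusted p = 0.124). Of the NMDA receptor subunits, Grin3a fell from 95 to 7 counts per group (adjusted p = 0.00747). Grin2d and Grin3b did not pass, at log2 fold changes of -0.55 and -0.06.

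In 4 pairs of related genes the member that dominated in Egfp_OE gave way to the other in Kitl_OE, or the share of 1 of them rose. The pairs were picked after their values were seen, so their shares are a description without a test. Kcnd2 made up 1.55% ± 0.847 of the summed TPM of Kcnd2 and Kcnd1 in Egfp_OE and 90.3% ± 2.11 in Kitl_OE (SD, n = 3). In shCtrl and shKitl the share was 10.4% ± 1.95 and 8.28% ± 6.51. So Kcnd1 held most of this A-type pair in 3 groups and Kcnd2 in 1.

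The share of Kcnh7 beside Kcnh5 went from 16.6% ± 24.2 to 97.1% ± 4.95, but single Egfp_OE libraries stood at 4.71%, 44.4% and 0.615% on few reads. The share of Cacnb4 beside Cacnb2 went from 8.87% ± 3.04 to 85.6% ± 7.04, and that of Kcnab1 beside Kcnab2 from 51.5% ± 5.68 to 95.8% ± 0.868. For Kcnab1 the shares in shCtrl (79.8% ± 8.64) and shKitl (84.9% ± 6.07) were nearer to Kitl_OE than to Egfp_OE. Cacnb3, the dominant beta subunit in TPM, stood at 98.5% or more beside Cacnb2 in every library, so the exchange between Cacnb4 and Cacnb2 took place among minor subunits.

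**Figure D4:**
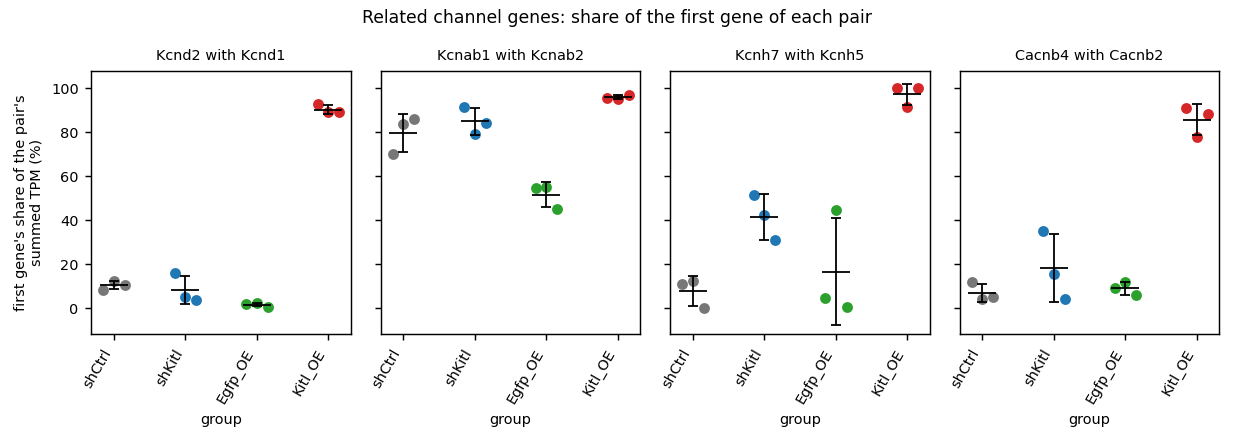
Share of the first gene in the summed TPM of 4 pairs of related genes (y axis, percent) in the 4 groups (x axis), with 1 point per library, the mean as a horizontal line and SD as bars. The first gene reached 85.6% to 97.1% on average in Kitl_OE in all 4 pairs and 1.55% to 51.5% in Egfp_OE.

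Knockdown of Kitl gave no call among the members. By edgeR's quasi-likelihood test 0 of 58 passed in shKitl minus shCtrl, and 0% of all genes did. Kitl, the target, was lower in shKitl without overlap and did not pass either (log2 fold change -1.46 ± 0.258 SE, adjusted p = 0.121). The absence of calls here is therefore no evidence that the members did not change. At an unadjusted p under 0.05 there were 14 members (24.1%, against 15.8% of all genes), and DESeq2 called 4, against 2.88% of all genes. The groups did not overlap in 11 members (19%, against 19.7% of all genes), with 3 higher (against 11% of all genes) and 8 lower (against 8.64%) in shKitl. The members' median log2 fold change was 0.26 beside 0.05 over all genes.

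The member with the smallest unadjusted p was Gabra3, at 2.93, 1.38 and 1.1 CPM in the shCtrl libraries and 22.3, 46 and 2.99 CPM in the shKitl libraries. All shKitl libraries were above all shCtrl libraries, but replicate 3 (P number 15) was close to shCtrl while replicates 1 and 2 (13 and 14) were far above it (log2 fold change 3.71 ± 0.763 SE, adjusted p = 0.134). Grid1 was next, at 2.96, 1.89 and 0.975 CPM in the shCtrl libraries and 0.178, 0.255 and 0.448 CPM in the shKitl libraries, lower in shKitl without overlap (log2 fold change -2.72 ± 0.569 SE, adjusted p = 0.135). Gria4 stood at 3.62, 1.66 and 1.53 CPM in the shCtrl libraries and 5.76, 31 and 2.61 CPM in the shKitl libraries, with its difference carried by shKitl replicate 2 (log2 fold change 2.53 ± 0.732 SE, adjusted p = 0.21, and a log2 fold change of 0.88 without that library). Cacna1a stood at 6.45, 2.88 and 2.59 CPM in the shCtrl libraries and 22.8, 15.9 and 5.49 CPM in the shKitl libraries (log2 fold change 1.88 ± 0.55 SE, adjusted p = 0.212), with shKitl replicate 3 again nearest to shCtrl.

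Leaving out shKitl replicate 3 turned these 4 into calls, with adjusted p of 0.0177 for Gabra3, 0.0459 for Grid1, 0.0391 for Gria4 and 0.0459 for Cacna1a. Calls over all genes went from 0% to 1.76% in that fit, so the change was not limited to these genes. In the 2 comparisons Grid1 was below 0 in both, Cacna1a above 0 in both, and Gabra3 and Gria4 above 0 with the hairpin and below 0 with added Kitl. Within the hairpin lines the P number and the replicate move together. shCtrl replicate 1 (P number 14) was the highest of its group in Gabra3, Grid1, Gria4, Cacna1a, Grik5 and Scn7a, and whether P number bears on these values was not tested within a group.

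The control lines gave no call among the members either. In Egfp_OE minus shCtrl 0 of 58 members were called by edgeR's quasi-likelihood test, against 1.25% of all genes, with 22 at an unadjusted p under 0.05 (37.9%, against 24.4%). DESeq2 called 15, against 10.4% of all genes. The groups did not overlap in 25 members (43.1%, against 28.5% of all genes), with 15 higher (against 14.6%) and 10 lower (against 13.9%) in Egfp_OE. Kcnmb4 and Cacna1g are among the 15 higher. Neither would have reached the minimum without the Egfp_OE libraries, so the choice of members favoured this direction. Construct and P number differ together between these lines and cannot be told apart.

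Values nearest the threshold were those of Scn9a (log2 fold change 1.71 ± 0.378 SE, adjusted p = 0.0517), Gabra2 (log2 fold change -2.62 ± 0.577 SE, adjusted p = 0.0517), Cacng8 (log2 fold change 1.53 ± 0.354 SE, adjusted p = 0.0562) and Kcnmb4 (log2 fold change 3.12 ± 0.721 SE, adjusted p = 0.0562). Kcnmb4 would not be a member without the Egfp_OE libraries, so its choice already favoured a higher value there. Without shCtrl replicate 1, 6 members were called, with Scn9a, Kcnab2, Cacng8, Grik5 and Kcnu1 higher and Gabra2 lower, while the calls over all genes went from 1.25% to 4.94%. Several falls in Kitl_OE thus started from an Egfp_OE level above that of shCtrl. Scn9a was at 1.73 ± 0.827 CPM in shCtrl, 5.69 ± 1.4 in Egfp_OE and 0.158 ± 0.0436 in Kitl_OE, so Kitl_OE was lowest against either control. For Cacng8 the Kitl_OE level of 1.94 ± 0.472 CPM overlapped that of shCtrl at 2.54 ± 0.941.

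The effects of adding and of lowering Kitl were then compared within 1 fit. The difference of the 2 effects passed an adjusted p of 0.05 by edgeR's quasi-likelihood test in 26 of 58 members (44.8%, against 14% of all genes). It was lower for 24 members (41.4%, against 9.88%) and higher for 2 (3.45%, against 4.07%). In each, the overexpression effect was set against the knockdown effect, which was not called for any member. Cacna1g, Kcnj2 and Kcnmb4 are among the 24 lower differences. They would not have reached the minimum without the Egfp_OE libraries, so the choice of members favoured this direction.

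Kcnd2 was the clearest case of a higher difference (log2 fold change 6.67 ± 0.768 SE, adjusted p = 2.88e-04), since its knockdown value was 0.21. Gria4 and Gabra3 combined a fall in Kitl_OE or a value below 0 there with a positive knockdown value. For Gria4 the effects were -6.00 and 2.53 (difference adjusted p = 0.00121), and for Gabra3 -1.18 and 3.71 (adjusted p = 0.0112). Kcnab1, called higher in Kitl_OE, did not pass for the difference (log2 fold change 1.07 ± 0.331 SE, adjusted p = 0.0517).

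**Figure D5:**
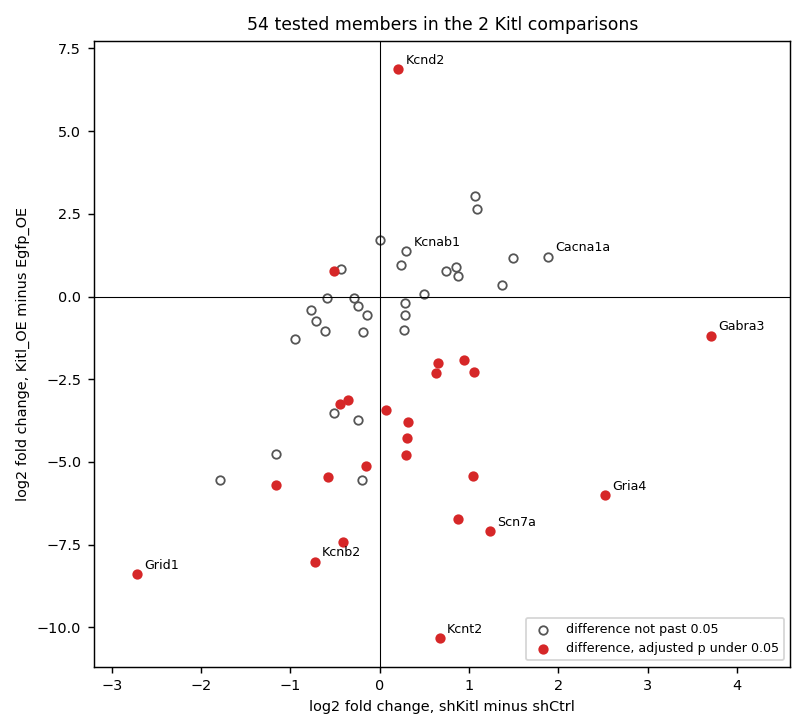
Log2 fold change of 54 of the 58 tested members in shKitl minus shCtrl (x axis) and in Kitl_OE minus Egfp_OE (y axis), with members whose 2 effects differ at an adjusted p under 0.05 filled. The filled points lie mostly in the lower part of the plot, with Kcnd2 at the top, Gria4 and Gabra3 to the right and Kcnt2 at the bottom.

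Other channel genes, from lists that hold none of the members, were counted in the same way. The calls over all genes were 34.3% and their median log2 fold change -0.07, as above. Of 20 tested chloride channel genes 5 rose and 1 fell in Kitl_OE minus Egfp_OE (30%, a share near that of all genes, median log2 0.17), with Ano3, a membrane protein of the anoctamin family, up from a mean of 6.83 to 33.5 CPM (log2 fold change 2.29, adjusted p = 0.0232). Of 28 TRP, mechanosensitive and related cation channel genes 10 rose and 5 fell (53.6%, median 0.59). Trpv4, opened by cell swelling and warmth, rose from 0.331 to 5.73 CPM (log2 fold change 4.09, adjusted p = 0.00153), and Piezo2, the touch channel, fell from 6.84 to 0.271 CPM (log2 fold change -4.62, adjusted p = 1.95e-04). Of 13 store-operated and intracellular release channel genes 6 rose and 2 fell (61.5%, median 0.61). Itpr1, a release channel of the endoplasmic reticulum (log2 fold change 1.98, adjusted p = 0.00197), and Stim1, the calcium sensor of that store (log2 fold change 1.38, adjusted p = 8.83e-04), rose, while Ryr1, the release channel known from skeletal muscle, fell from 1.37 to 0.203 CPM (log2 fold change -2.71, adjusted p = 5.10e-04).

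Partner subunits outside the name rule gave 3 falls and no rise among 8 tested (37.5%, a share near the 34.3% of all genes, median -1.32). Abcc8, the sulphonylurea receptor that surrounds inward rectifier pores, fell from 10.3 to 0.013 CPM (log2 fold change -9.27, adjusted p = 6.29e-05). Neto2, an auxiliary subunit of kainate receptors, fell from 29.8 to 2.15 CPM (log2 fold change -3.78, adjusted p = 2.32e-05), and Fgf13, which binds sodium channels, fell on few reads (log2 fold change -4.52, adjusted p = 0.0158). Metabotropic, glycine, nicotinic and muscarinic receptor genes gave 1 rise and 5 falls among 7 tested (85.7%, median -1.72), including Glrb, the glycine receptor beta subunit (log2 fold change -1.72, adjusted p = 0.00308). Scaffold genes gave 5 rises and 4 falls among 20 tested (45%, median -0.01), with Ank3, the ankyrin that gathers sodium channels, lower (log2 fold change -2.17, adjusted p = 1.76e-04). No list held a call in shKitl minus shCtrl.

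Markers of other cell types differed between the same libraries. The summed TPM of the neuronal list was 43.4 to 65.0 in Egfp_OE and 17.8 to 32.4 in Kitl_OE, with 15.5 to 43.4 in shCtrl and 61.9 to 118 in shKitl, and rested mostly on Tubb3. The 5 neuronal genes at the minimum were all lower in mean TPM in Kitl_OE than in Egfp_OE, Tubb3 at 25.1 and 46.3, Map2 at 1.09 and 2.72, Syt1 at 0.0296 and 1.15, Elavl4 at 0.162 and 0.544, and Nefm at 0.00617 and 0.0205. Nefm had 4 counts over Egfp_OE and 1 over Kitl_OE, too few to give a direction. The other 8 genes of the list had a mean of at most 0.247 TPM in every group. The mesothelial list, with 7 of 12 genes at the minimum, was at 412 to 672 TPM in Kitl_OE, against 24.4 to 36.7 TPM in Egfp_OE, 120 to 140 TPM in shCtrl and 156 to 238 TPM in shKitl. All 7 had a higher mean TPM in Kitl_OE than in Egfp_OE. The Kitl_OE sum rested mostly on Gpm6a, Upk3b and Nkain4, at means of 144, 119 and 118 TPM. Msln was lower in Kitl_OE, at 50.7 TPM, than in shCtrl (119 TPM) and shKitl (125 TPM). The smooth muscle and pericyte list, with 10 of 13, was at 1513 to 2664 TPM in Kitl_OE and 65.0 to 429 over the other groups, mostly through Actg2. From Egfp_OE to Kitl_OE the mean TPM was higher for 5 of those 10 genes, with Actg2 at 64.3 and 1876, and lower for 5, with Rgs4 at 29.6 and 0.247 and Rgs5 at 2.46 and 0.199. The Schwann cell list, with 6 of 10, was at 207 to 227 TPM in Kitl_OE and 21.2 to 97.7 elsewhere, mostly through Pmp22 and Mbp. The part of these shifts in the members' values was not tested.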

How the data were processed

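PolyA-selected RNA of 12 libraries was sequenced. Raw counts per gene were deposited by the authors. The submitters' processing notes name STAR 2.5.2b, featureCounts, Subread 1.5.2 and DESeq2, and the build GRCm38 (mm10). The TPM values deposited by the authors are per gene length and library total. Not given in the sources used here are the gene length behind them, the counting strand and the annotation used. The 92 ERCC spike-in entries stayed out of library sizes and tests.

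Tests used edgeR 4.0.16 (R 4.3.3): filterByExpr by group, TMM scaling, a robust quasi-likelihood fit with 1 coefficient per group over all 12 libraries (biological coefficient of variation 0.292), and Benjamini-Hochberg adjustment over 15271 genes with a threshold of 0.05. Standard errors are the fold change over the root of F. Exact permutation of 3 against 3 libraries cannot give a two-sided p below 0.1, so single values got no such test. Ratios of low counts carry exact 95% intervals.

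The members and lists were chosen with earlier results of these data known. Members given in every library were, by rule, those past the threshold in Kitl_OE minus Egfp_OE with at least 0.5 mean CPM in the higher group (up to 10 of each sign by log2 fold change), the 4 with the smallest unadjusted p in shKitl minus shCtrl, up to 4 of each sign past it in Egfp_OE minus shCtrl, and the 8 with the highest mean TPM. Others given in every library (among them Scn1a, Scn2a, Scn9a, Gabre, Kcnab2 and Cacna1c) were chosen after their values were seen. Up to 4 called genes of each other channel list were named. The values of 4 members and of 1 gene of the other lists are not reported here, although the counts include them. Gene coordinates came from GENCODE M21, which held all 59 members by ID, and promoters from RefSeq. The alternatives comprised DESeq2 1.42.0, limma 3.58.1 on counts and on log2(TPM + 1 or 0.1), other scalings and filters, a replicate block, P number as covariate and each library left out.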

Additional observations from a re-analysis of the deposited data

Results flagged for a closer look

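In 26 members the effect of overexpressing Kitl (Kitl_OE minus Egfp_OE) differed from the effect of the hairpin against it (shKitl minus shCtrl) at an adjusted p under 0.05 by edgeR's quasi-likelihood test of the difference itself. The values below are that difference for 24 of them, in log2 units. It was above 0 for Kcnd2 (6.67) and Kcnk2 (1.27).

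Among potassium channel genes it was below 0 for Kcnt2 (-11), Kcnb2 (-7.29), Kcnmb4 (-6.46), Kcnj2 (-5.08), Kcnn4 (-4.87), Kcna4 (-4.58), Kcnq5 (-4.54), Kcnd1 (-2.93) and Kcnab2 (-2.76). Among sodium channel genes it was -8.33 for Scn7a, -7.59 for Scn1a and -4.97 for Scn9a. Among calcium channel genes it was -3.51 for Cacna1b, -3.32 for Cacna1g, -2.86 for Cacng8, -2.81 for Cacnb2 and -2.65 for Cacng7.

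Among GABA-A receptor genes it was -7.02 for Gabra4, -4.89 for Gabra3 and -4.10 for Gabre. Among glutamate receptor genes it was -8.53 for Gria4 and -5.68 for Grid1. For Kcnt2, Scn1a and Gabra4, which had no count in Kitl_OE, the fitted value depends on the prior count and is no bound. The calls of Kcnj2, Cacna1b and Kcnk2 were the least stable of these, being lost under 16 of 23, 15 of 23 and 15 of 24 alternatives. Kcnmb4, Kcnj2 and Cacna1g would not be members without the Egfp_OE libraries, so their choice already favoured a value below 0.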

How the results depend on the processing

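The 37 members called in Kitl_OE minus Egfp_OE became 16 where 5 CPM in 3 libraries was required (23 members tested) and 24 with limma on log2(TPM + 1), and 32 to 41 with 1 library left out. Over all genes 5236 calls of 15271 became 3983 of 10929 and 4020 of 15271 in that order, and 3501 to 6150 with 1 library left out. Of the 37 calls, 21 held under every alternative in which they were tested, and none changed sign. Scaling by spike-in totals gave 32 and moved the median of all genes in Egfp_OE minus shCtrl from 0.05 to -0.34 and in the difference of the effects from -0.09 to 0.10. Other scalings gave 36 and 37. Calls over all genes were 2351 under spike-in scaling, and 5159 and 5256 under the other scalings. In shKitl minus shCtrl, 0 calls became 1 with all genes with any count and 4 with DESeq2, and 0 to 4 with 1 library left out (4 without shKitl replicate 3). Over all genes 0 calls became 23 of 29709 and 439 of 15271 in that order, and 0 to 277 with 1 library left out. In Egfp_OE minus shCtrl, 0 became 4 with all genes with any count, 15 with DESeq2, 3 with limma-voom and 1 with limma on either log2 TPM scale, and 0 to 6 with 1 library left out (6 without shCtrl replicate 1, 3 without Egfp_OE replicate 1). There 191 calls over all genes became 349, 1553, 307, and 173 and 104 on the TPM scales, and 0 to 771 with 1 library left out. The 26 differences between the effects became 12 under the 5 CPM filter, 13 with limma on log2(TPM + 1), 15 on log2(TPM + 0.1) and 13 with only the libraries of shared P numbers, an alternative chosen after seeing the data, and 21 to 30 with 1 library left out. For all genes 2131 differences became 1490, 1291, 1429 and 642 in that order, and 1245 to 2842 with 1 library left out. The cause of these shifts was not tested beyond the smaller number of members or libraries in the stricter fits. A replicate block gave 37 calls in Kitl_OE minus Egfp_OE (36 shared), 26 differences and 0 calls in the other comparisons. Over all genes it gave 5186 calls, 2118 differences, 0 calls in shKitl minus shCtrl and 82 in Egfp_OE minus shCtrl. Deviations of same-numbered libraries from their group mean correlated at 0.15, -0.26 and 0.53 between the hairpin lines and 0.03, 0.20 and 0.17 between the overexpression lines, and not every library correlated best with its own number. Deviations from a mean of 3 libraries sum to 0 within a group, so these correlations cannot decide whether the numbers pair the samples. Libraries that share a P number correlated at 0.56 (14) and 0.32 (15) between the hairpin lines and at -0.0017 (18) and -0.18 (19) between the overexpression lines. With the P number as a covariate there were 39 calls in Kitl_OE minus Egfp_OE (35 shared), 20 differences and 0 calls in the other comparisons. Over all genes that fit gave 5051 calls, 1541 differences and 0 calls in the other comparisons. Membership counted 74 genes at 10 counts in 1 library and 44 at 30 counts in 3. Depth limits the fold changes of the 14 members with 3 or fewer counts over Kitl_OE.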
